A study of Caenorhabditis elegans with 2 samples.

Results

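Nuclear pore and nuclear transport genes were examined in a ChIP-seq study of SNAI-1, the Snail-family zinc-finger factor of Caenorhabditis elegans that is also called K02D7.2. They were taken by symbol: every protein-coding gene whose name in the Ensembl annotation begins with npp-, imb-, ima-, xpo- or ran-. This gave 40 genes out of 19973 protein-coding genes. Pore genes under other names, such as rae-1, are not among them. The gene class was proposed, and its members were chosen for description, by the signal at their promoters in these same data, so their signals are given as a description and no test was applied to them. Each gene was scored by the strongest region of the pooled list whose summit lay between 1000 bp upstream and 200 bp downstream of a transcript start. All values came from 1 group of 2 biological replicates of strain OP698, whose genotype is unc-119(tm4063) III; wgIs698 and which carries SNAI-1 with a C-terminal GFP-FLAG tag. Late embryos of mixed sex were taken as whole organisms 5 h after egg bleaching, and the tagged protein was recovered with an anti-GFP antibody. Both replicates share the mutation and the transgene, there is no second condition, and whole embryos mix all tissues. Which promoter drives the fusion protein is not given in the sources used here.

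Nuclear pores are ring-shaped protein assemblies that span the nuclear envelope and carry all traffic between nucleus and cytoplasm. Nucleoporins, most of them named npp in the worm, build an outer and an inner ring and anchor the pore in the membrane. They also line the central channel and extend to the cytoplasmic face and into a nuclear basket. Importins and exportins ferry cargo through the channel, and the small GTPase Ran sets the direction of transport by being bound to GTP in the nucleus and to GDP in the cytoplasm.

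The DNA at 6 of the strongest promoter summits of the class is shown because 3 of them (npp-8, ima-1 and npp-16) lie in the authors' reproducible peak set and 3 (npp-25, npp-19 and ran-3) are weaker regions below it. Each sequence runs from 50 bp before to 50 bp after the summit inclusive, 5′ to 3′ on the strand of the gene, read from the RefSeq sequence of WBcel235 (ce11). Capitals mark matches, on either strand, to the hexamer CGCGCC or the hexamer GCCGCA or the hexamer CCGCAC (all frequent at the promoter peaks of these libraries), to GTTCGA (the core of the tRNA B box) and to ATTGCA, which was chosen after these windows were seen.
npp-8, chrIV:1595931-1596031, minus strand: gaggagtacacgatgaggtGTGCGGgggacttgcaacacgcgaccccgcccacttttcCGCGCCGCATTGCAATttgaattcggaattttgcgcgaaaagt
ima-1, chrV:11239378-11239478, plus strand: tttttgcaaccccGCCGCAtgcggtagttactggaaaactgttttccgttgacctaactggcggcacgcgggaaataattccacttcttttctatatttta
npp-16, chrIII:11915826-11915926, plus strand: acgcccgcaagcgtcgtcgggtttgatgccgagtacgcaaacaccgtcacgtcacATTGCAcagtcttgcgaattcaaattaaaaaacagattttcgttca
npp-25, chrIII:12926368-12926468, minus strand: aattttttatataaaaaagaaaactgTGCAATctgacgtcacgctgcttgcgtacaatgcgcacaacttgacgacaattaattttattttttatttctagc
npp-19, chrII:10798524-10798624, minus strand: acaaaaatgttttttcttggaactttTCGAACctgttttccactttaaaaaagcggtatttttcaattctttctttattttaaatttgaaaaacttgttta
ran-3, chrII:8325320-8325420, minus strand: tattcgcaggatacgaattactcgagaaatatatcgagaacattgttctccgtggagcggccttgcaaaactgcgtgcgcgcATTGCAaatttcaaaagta

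Of the 40 genes, 26 (65%) had a pooled candidate summit in the promoter window, against 38.3% of all protein-coding genes. A peak of the authors' reproducibility list (irreproducible discovery rate, IDR; 495 peaks, all of them the strongest regions of the pooled list) lay in the window of 5 genes (12.5%), against 1.55% of all protein-coding genes. The 5 were npp-8, npp-6, ima-1, npp-14 and npp-16. A region among the strongest 5000 of the pooled list was present at 13 genes (32.5%), against 9.75%. When each summit counted for its nearest start only, the numbers fell to 18 genes with a pooled summit (45%, against 34.2% of all protein-coding genes), 3 with an IDR peak (7.5%, against 1.13%) and 6 among the strongest 5000 (15%, against 8.1%). Because the class was proposed from this signal, these shares describe the choice and carry no further weight. Among the 26 scored genes the pooled rank had a median of 5027 and ran from 106 to 22033 of 30000, and the signal ran from 38.5 to 224.6. The lowest signal in the IDR list was 114.7. Just inside it lay npp-16 at a signal of 121.8, and just outside it lay npp-25 at 97.9. The signal is the authors' value for each region, on an unstated scale, and it compares regions only within 1 list. The 5 genes at IDR peaks belonged to 5 different parts of the transport machinery, as the plot of signal by role shows.

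**Figure D1:**
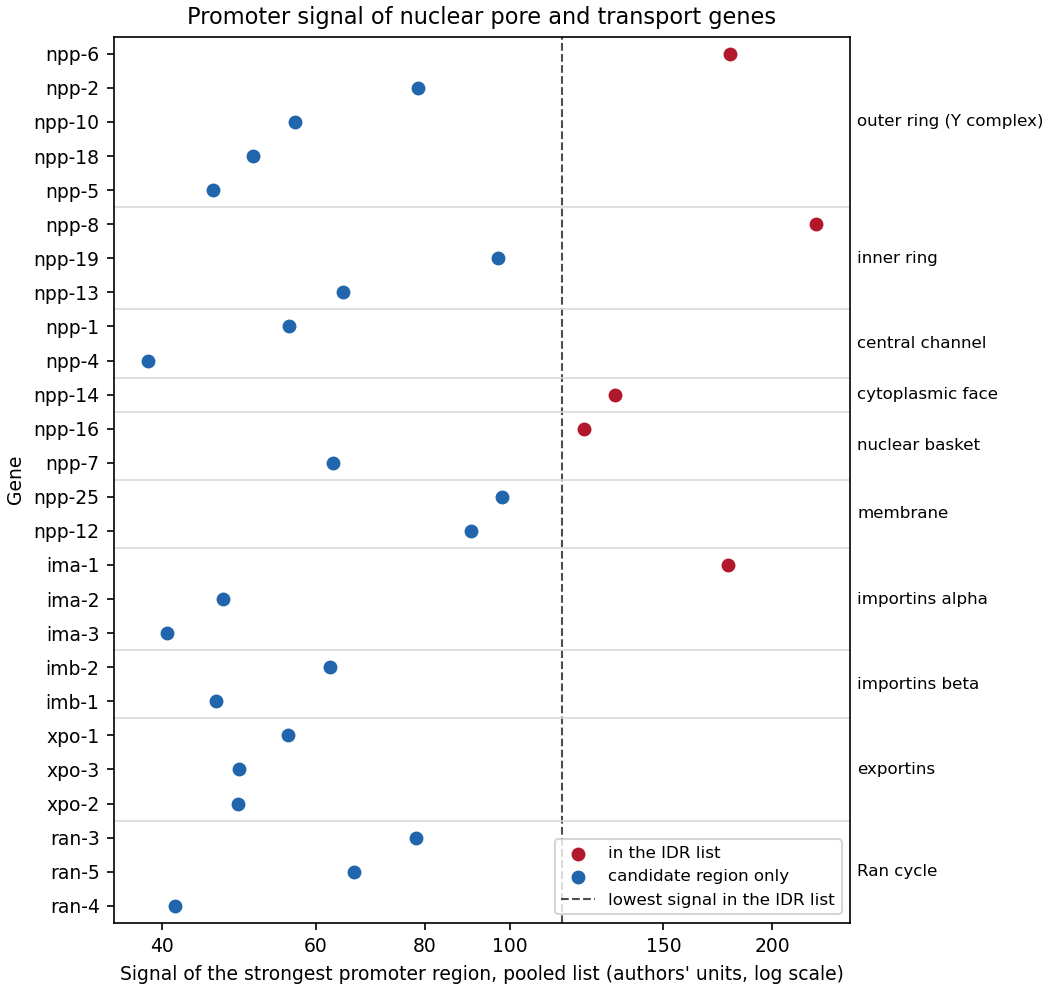
Signal of the strongest promoter region in the pooled list (horizontal axis, authors' units, log scale) for each of the 26 scored genes, grouped by role in the pore or in transport. Red points are regions in the IDR list and blue points are weaker candidate regions. The dashed line is the lowest signal in the IDR list, 114.7, and 5 points lie to its right.

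The inner ring, which holds the scaffold of the pore against the membrane, gave the strongest region of the class. It lay at npp-8 (WBGene00003794), the worm Nup155 gene, at chrIV:1595753-1596208 on ce11, with its summit between genes and 157 bp upstream of the start. The signal was 224.6 in the pooled list (rank 106), 106.9 in replicate 1 (rank 142) and 113 in replicate 2 (rank 106). Both replicates thus placed it among their strongest 495 regions, and their summits lay 4 bp apart. Its −log10 q of 2.47 was the highest value that occurs in the pooled list, although regions with signals of up to 866.2 ranked above it. The other 4 genes at IDR peaks had a −log10 q of 2.09 (npp-6), 2.10 (ima-1), 1.89 (npp-14) and 1.75 (npp-16), where the lowest in the IDR list was 1.63. Of the other inner ring genes, npp-19, the worm Nup35 gene, had a signal of 97 (rank 860) with its summit 95 bp upstream of the start. It ranked 333 in replicate 2 and 8724 in replicate 1, where the strongest summit in the window lay 744 bp away from that of replicate 2. The Nup93 gene npp-13 had a signal of 64.4 (rank 4466) at 3 bp upstream of an internal start, and npp-3, the Nup205 gene, had no pooled summit in its window.

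The outer ring, or Y complex, is the coat-like scaffold on both faces of the pore. Its strongest region lay at npp-6 (WBGene00003792), the Nup160 gene, on chromosome I (5176219 to 5176674, summit 382 bp upstream of the start). The signal was 178.8 in the pooled list (rank 185), 93 in replicate 1 and 85.6 in replicate 2 (rank 186). The ranks of the replicates differed by 1.08 times, and the summits lay 26 bp apart. The summit also lay in an intron of spd-5, which is transcribed the other way and encodes a scaffold protein of the centrosome. The Nup85 gene npp-2 followed at a signal of 78.5 (rank 1992), with ranks of 1347 and 14462 in replicates 1 and 2. The remaining scored genes of the complex had lower signals: npp-10, which encodes the precursor of Nup98 and Nup96, at 56.8, the Seh1 gene npp-18 at 50.9 and the Nup107 gene npp-5 at 45.7. The genes npp-15 (Nup133), npp-20 (Sec13) and npp-23 (Nup43) had no pooled summit.

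At the cytoplasmic face, npp-14 (WBGene00003800), the Nup214 gene, had an IDR peak on chromosome I (9664938 to 9665393). The signal was 131.9 in the pooled list (rank 346), 80.6 in replicate 1 (rank 293) and 52.2 in replicate 2 (rank 751). It was among the strongest 495 regions of replicate 1 and not of replicate 2. The summit lay between genes, 251 bp upstream of the npp-14 start and 85 bp upstream of the start of cel-1, the mRNA capping enzyme gene. The other members placed at this face, npp-9 (Nup358) and npp-24 (Nup88), had no pooled summit. The Rae1 gene rae-1 also belongs to this face, but its symbol keeps it out of the class. Its strongest promoter region had a signal of 143.9, above that of npp-14. The pooled rank of 292 lies within the 495 of the IDR list, and the ranks in replicates 1 and 2 were 348 and 306. In the nuclear basket, npp-16 (WBGene00003802), the Nup50 gene, had an IDR peak at chrIII:11915648-11916103, 52 bp upstream of its start. Its signal of 121.8 (pooled rank 427) came from a region that was strong in replicate 1, at 72.3 (rank 394), and weak in replicate 2, at 35.1 (rank 4042). In replicate 2 a stronger region, of rank 2160, overlapped the pooled region but had its summit outside the promoter window. The Nup153 gene npp-7 had a signal of 62.8, with a region of rank 1381 in replicate 2 and none in replicate 1, and npp-21 (TPR) had no pooled summit.

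The pore's membrane proteins and its central channel had no IDR peak. Among the membrane genes, npp-25 had a pooled signal of 97.9 (rank 831). The replicates differed there, with a rank of 284 in replicate 2 and 1894 in replicate 1 and summits 477 bp apart. The gp210 gene npp-12 had a signal of 90.4 (rank 1139) with ranks of 1249 in replicate 1 and 2817 in replicate 2, which differ by 2.26 times. The Ndc1 gene npp-22 had no pooled summit. The genes assigned here to the central channel were low or absent. The signal was 55.9 at npp-1 (Nup54) and 38.5 at npp-4 (Nup58), the lowest of all 26. The Nup62 gene npp-11 had no pooled summit. The genes npp-26 and npp-27 had none either, although npp-27 had a region of rank 1762 in replicate 2 and of rank 28564 in replicate 1.

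Importin alpha proteins bind the classical nuclear localization signal and link cargo to importin beta. The 3 importin alpha genes all had a pooled summit and differed widely in signal. At ima-1 (WBGene00002072) the region at chrV:11239200-11239655 had a signal of 178.1 in the pooled list (rank 190), 95.5 in replicate 1 (rank 190) and 86.9 in replicate 2 (rank 184). These were the closest ranks between the replicates among the 18 genes found in both, and the summits lay 20 bp apart. The pooled summit was 247 bp upstream of ima-1 and 97 bp upstream of dvc-1, which is transcribed in the opposite direction. At ima-2 the signal was 47 (rank 13229) and at ima-3 it was 40.5 (rank 19571), both well below the IDR list. Of the importin beta genes, imb-2, the transportin gene, had a signal of 62.3 (rank 5096) and imb-1, importin beta itself, 46.1 (rank 14045). No pooled summit lay at imb-3.

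All 3 exportin genes had weak summits. The signal was 55.8 at xpo-1 (the export receptor CRM1), 49 at xpo-3 (the tRNA exporter) and 48.9 at xpo-2 (CAS, which returns importin alpha to the cytoplasm), with pooled ranks from 7602 to 11796. In the Ran cycle, ran-3, the gene of the nucleotide exchange factor RCC1, had the highest signal, 78.1 (rank 2039). It had a signal of 38.4 in each replicate, at rank 4722 in replicate 1 and 2732 in replicate 2, and the summits lay 24 bp apart. The gene ran-5 had a signal of 66.3 with ranks of 2723 and 23390 in replicates 1 and 2, and ran-4, the gene of the Ran import factor NTF2, had 41.4. The genes of Ran itself (ran-1) and of its GTPase-activating protein (ran-2) had no summit in the pooled list or in either replicate.

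The replicates placed the 3 strongest genes close together in rank and many of the weaker ones far apart. Of the 40 genes, 24 had a candidate summit in replicate 1, 27 in replicate 2 and 18 in both (45%, against 24.2% of all protein-coding genes). Among the strongest 495 regions of each replicate, 5 genes were found in replicate 1 and 5 in replicate 2 (12.5% each, against 1.51% of all protein-coding genes in each). In both were 3 of them, npp-8, npp-6 and ima-1 (7.5%, against 1% of all genes). These 3 are 60% of the 5 in each replicate, where over all genes 200 of the 302 in each replicate, 66.2%, were found in both. The others were npp-14 and npp-16 in replicate 1 and npp-19 and npp-25 in replicate 2. In 8 of the 18 genes found in both lists, the ranks were within 2 times of each other. No matching share over all genes is given, so whether this is usual cannot be told. In 7 of these 8 the replicate summits lay within 50 bp, while at xpo-3 they were 4322 bp apart, so its ranks are those of different regions. The 26 genes with a pooled summit had a summit in the window in both replicates at 17 genes, in replicate 1 alone at 3 and in replicate 2 alone at 6. In the reverse direction, 7 genes had a summit in a replicate but none in the pooled list, among them npp-15, at rank 3037 in replicate 2 only. The remaining 7 genes had no summit in any of the 3 lists (npp-11, npp-21, npp-22, npp-23, npp-24, ran-1 and ran-2). Each list stops at 30000 regions, so a missing summit does not tell a weaker region from no region. The summits of the replicates lay a median of 34.5 bp apart over the 18 genes (range 4 to 4322 bp), against 142 bp over all 4824 protein-coding genes with a summit in both lists, and 4 to 82 bp apart at the 5 genes with an IDR peak. Over all 309 genes with an IDR peak and a summit in both replicates the median distance was 25 bp. The sets also differ in rank. The median pooled rank was 5027 over the 26 genes with a pooled summit, against 11600 over all such genes. The part of rank in the distance between summits was not tested.

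**Figure D2:**
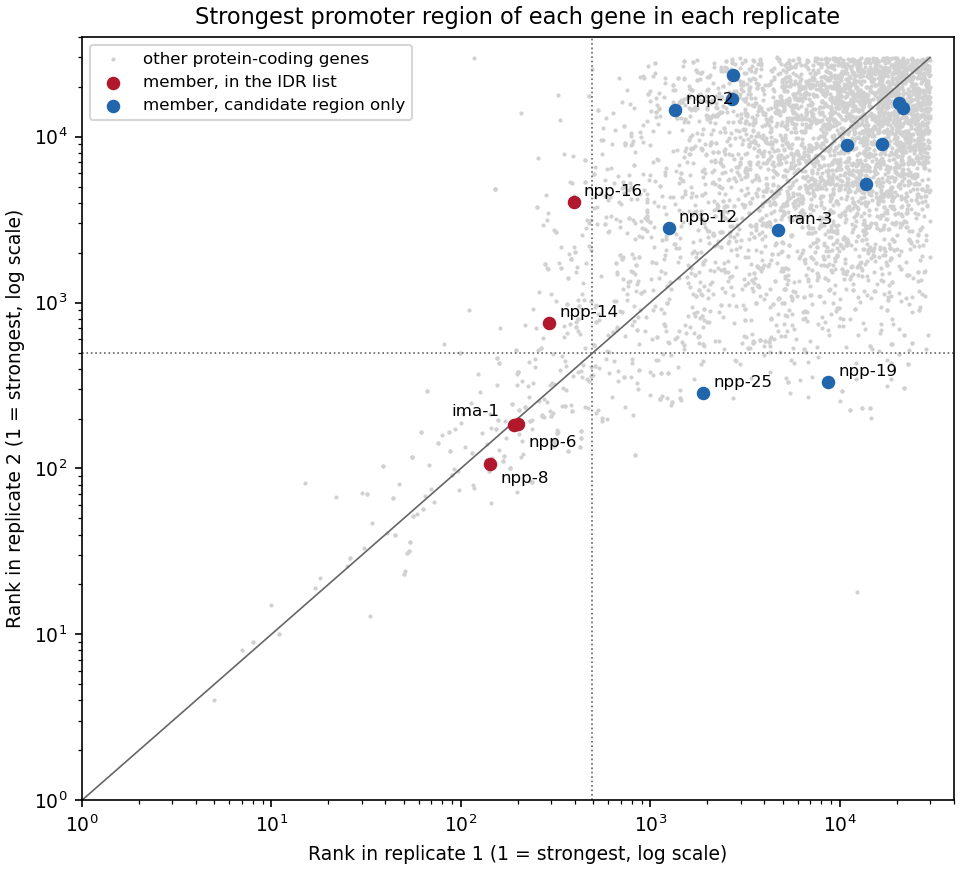
Rank of each gene's strongest promoter region in replicate 1 (horizontal) and replicate 2 (vertical), both on log scales with 1 as the strongest, for genes with a pooled summit and a summit in both replicates. Grey points are other protein-coding genes, red and blue points are nuclear pore and transport genes with and without an IDR peak, dotted lines mark rank 495 and the diagonal marks equal rank. The genes npp-8, npp-6 and ima-1 sit near the diagonal inside both dotted lines, while npp-16 and npp-19 are strong in 1 replicate.

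Most summits lay outside the gene and were shared with a neighbour. All 26 strongest summits were upstream of the nearest start of their gene, by 3 to 882 bp, and 21 were within 500 bp. At 24 genes the summit was outside the gene itself, while at npp-13 and imb-1 it was inside the gene and upstream of an internal start only. The median position was -263.5 bp, against -312 bp over all 7647 protein-coding genes with a pooled summit. The quartiles were -411.25 and -129.25 bp for the 26 genes, against -619 and -71 bp over all 7647. Most summits of all genes thus lay upstream too, in a window that reaches 1000 bp upstream and 200 bp downstream. At 16 of the 26 genes (61.5%) the same summit lay in the window of another protein-coding gene, against 25.7% of all genes with a pooled summit. In 15 of these 16 cases the neighbour is on the opposite strand, and at ran-4 the neighbour tmem-208 is on the same strand. A window that lies mostly upstream favours such opposite pairs, and their share over all genes with a shared summit is not given here. The summit was nearer to the start of the neighbour in 10 cases, such as npp-14 with cel-1, ima-1 with dvc-1, npp-25 with the mitochondrial ribosomal protein gene mrps-10 (139 bp, against 421 bp) and ran-3 with C26D10.3 (16 bp, against 318 bp). It was nearer to the pore or transport gene in 6 cases, such as npp-16 with ndab-1 (52 bp, against 164 bp) and npp-6 with spd-5 (382 bp, against 739 bp). Another was npp-2 with mei-1, a katanin subunit gene (596 bp, against 638 bp). The npp-6 summit also lay in an intron of spd-5. Any spd-5 start with the summit more than 200 bp downstream of it was not counted. Among the 5 genes at IDR peaks npp-8 alone had its summit to itself. Which gene of a pair a region belongs to cannot be told apart from positions alone.

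**Figure D3:**
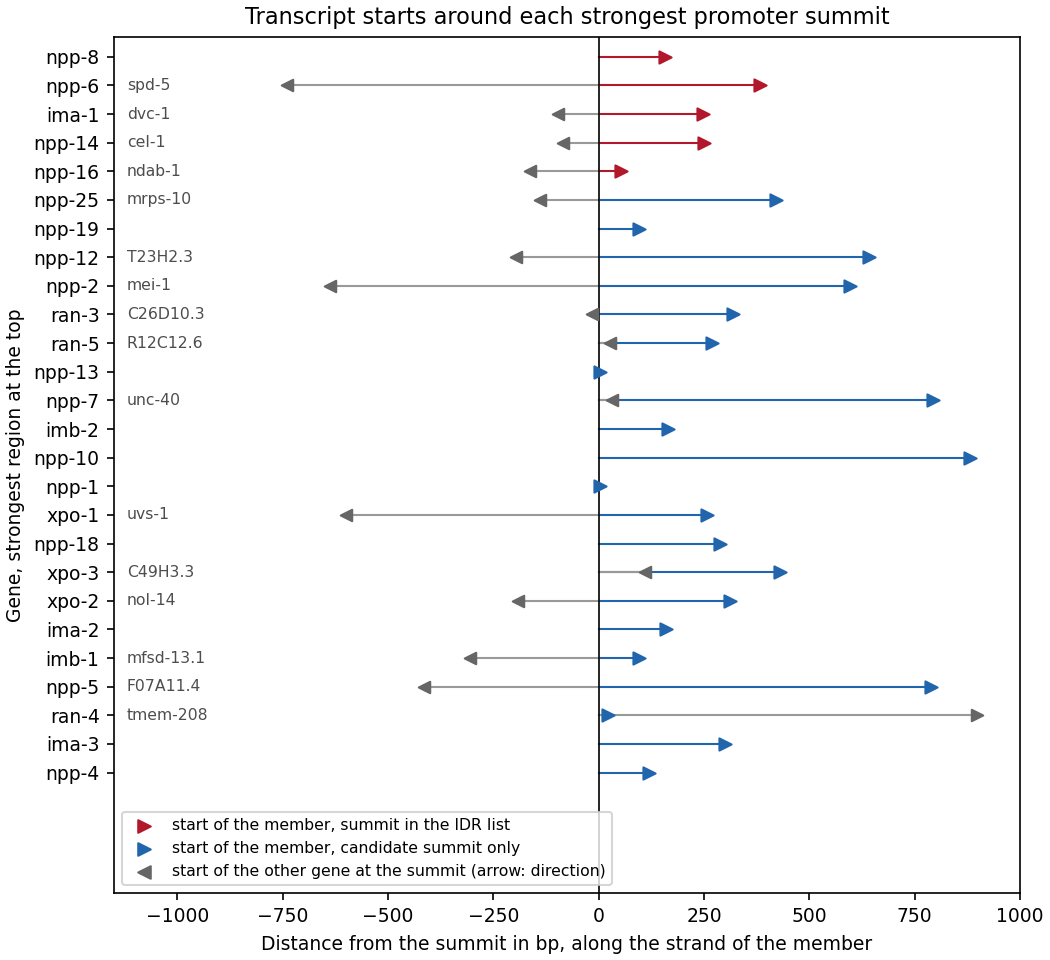
Distance in bp (horizontal axis) from each strongest summit, set at 0, to the nearest start of the pore or transport gene (red with an IDR peak, blue without) and to the start of the other gene whose window holds the summit (grey, named at the left), for the 26 scored genes in order of signal. Arrowheads point in the direction of transcription, all genes are drawn along the strand of the pore or transport gene, and 15 of the 16 grey arrowheads point to the left.

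None of the 26 summits lay within 100 bp of a tRNA, snoRNA, snRNA, microRNA or rRNA gene, while 18.4% of the 310 protein-coding genes with an IDR peak had such a gene beside the summit, and 1.82% of all 7647 with a pooled summit did. An unclassified non-coding RNA gene lay within that distance at ran-5 (R12C12.13) and at xpo-1 (ZK742.8). Of the 26 summits, 19 were between protein-coding genes, 5 in an exon and 2 in an intron. No shares over all genes are given for these places. Of the exons, 4 belonged to another gene, as at npp-7, where the summit was in an exon of unc-40, the netrin receptor gene. The genes lay on chromosome I (13), chromosomes II, III and IV (8 each) and chromosome V (3), and no member lay on X. Within 125 kb of the summit the 26 genes had a median of 71 other candidate regions, against 74 over all genes with a pooled summit. The highest numbers were 225 at npp-25, 214 at npp-16 and 166 at npp-18, all on chromosome III. At npp-8, npp-14, npp-6 and ima-1 the number was 87, 65, 61 and 45. Whether this crowding bears on the signals at npp-16 and npp-25 was not tested.

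The 5 regions at IDR peaks held more G and C than most of the weaker regions of the class. Within 50 bp of the summit the G and C share was 55.4% at npp-8, 48.5% at npp-6, 47.5% at npp-16, 45.5% at npp-14 and 44.6% at ima-1. The median over the 310 genes with an IDR peak was 48.5%. The 21 genes with a weaker summit had a median of 32.7%, and values from 21.8 to 50.5% that overlapped those of the 5, where all 7647 genes with a pooled summit had a median of 38.6%. The lowest share was 21.8%, at npp-5. Of the genes next below the IDR list by signal, npp-25 stood close to the median of the weaker regions at 31.7%, with 8 genes lower, and npp-19 was among those 8 at 23.8%. Next by signal came npp-12 at 45.5%, above ima-1, then npp-2 at 29.7% and ran-3 at 43.6%. The part of base composition in the signal was not tested.

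**Figure D4:**
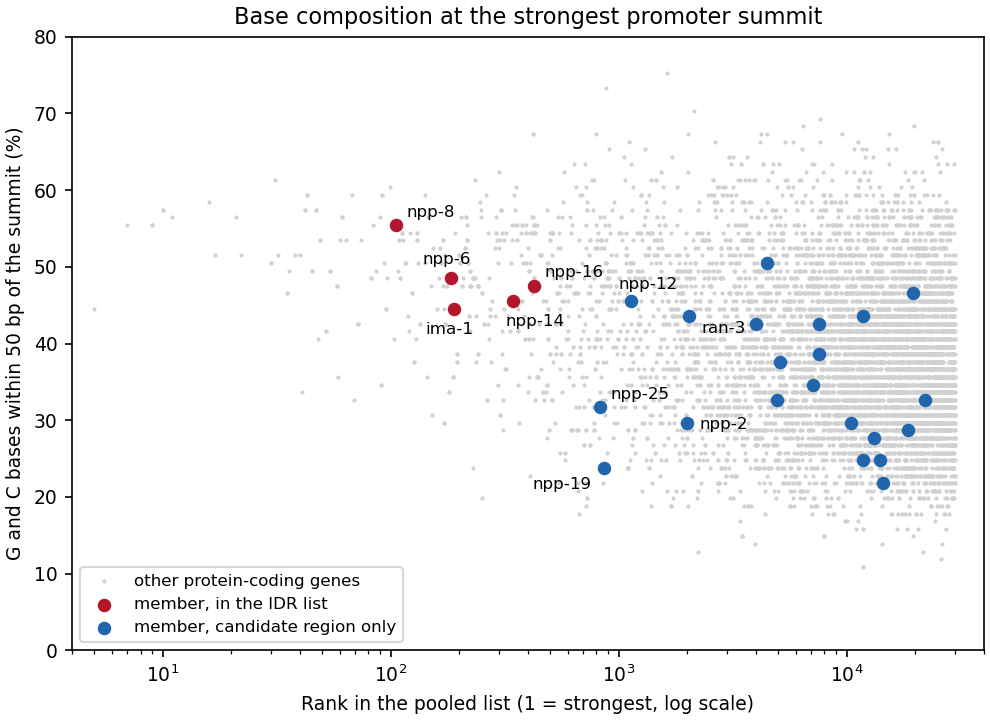
Share of G and C bases within 50 bp of each gene's strongest promoter summit (vertical axis, %) against the rank of that region in the pooled list (horizontal axis, log scale, 1 as the strongest). Grey points are other protein-coding genes, and red and blue points are nuclear pore and transport genes with and without an IDR peak. The 5 red points lie between 44.6 and 55.4%. The genes npp-19, npp-25 and npp-2 lie below them, and npp-12 lies within their range at 45.5%.

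The E-box CAGGTG, which Snail-family proteins bind in many animals, was found at 0 of the 26 summits on either strand, and it was present at 2.87% of the 9204 promoter summits of the pooled list and at 1.72% of the 232 promoter summits in the IDR list. The related E-box CACTTG was found at 1 summit, that of npp-2, against 4.29 and 11.2%. GCCGCA was the most frequent of the 6 hexamers listed for this class, at 4 summits. They were npp-8, npp-6, ima-1 and npp-13, so that 3 of the 5 genes at IDR peaks carried it. Its share was 3.34% over the promoter summits of the pooled list and 17.7% over those in the IDR list. CGCGCC was found at npp-8 and npp-10, against 3.46 and 15.9%. CCGCAC, which can overlap GCCGCA by 5 letters, was found at npp-8 alone, against 2.99 and 16.8%. GTTCGA was found at npp-19 and npp-5, against 3.57 and 10.8%, in neither case beside a tRNA gene. ATTGCA was found at npp-8, npp-16, npp-25, npp-12 and ran-3, against 6.28 and 12.1%. In the npp-8 sequence printed above, the CGCGCC match overlaps the GCCGCA match, whose last letter is the first of ATTGCA. The same stretch of capitals ends in TGCAAT, which is ATTGCA on the other strand and overlaps the first ATTGCA match. A match is a description of these windows and not evidence of a bound site, and no match says only that the letters are missing from the window.

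Away from the promoter windows, 46 further candidate summits lay inside 23 of the 40 genes (57.5%), against 35.8% of all protein-coding genes. The 40 genes are longer, with a median length of 3926 bp against 2027 bp, and the part of length in that share was not tested. None of the 46 was in the IDR list, which held such a summit in 0.766% of all protein-coding genes. The highest was in an exon of npp-25 (signal 78.7, rank 1966), followed by exons of npp-16 (76.9, rank 2172), xpo-3 (67.7, rank 3675) and imb-1 (67.4, rank 3731). In npp-8, a gene of 27904 bp, 5 such summits were found and the strongest, in an intron, ranked 15101. In npp-13, a gene of 26098 bp, 6 were found and the strongest ranked 13277.

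Genes with related functions, listed separately as nuclear envelope and mRNA export genes, included promoters with and without a summit. Of 25 listed genes, 11 had a pooled summit (44%, against 38.3%), 1 had an IDR peak (4%, against 1.55%) and 4 were among the strongest 5000 (16%, against 9.75%). The IDR peak was at lem-2, the gene of an inner nuclear membrane protein with a LEM domain (signal 142, rank 297, ranks 297 and 319 in replicates 1 and 2). Next came emr-1, the emerin gene, just outside the IDR list (111.3, rank 550), thoc-5, of the THO complex that couples transcription to mRNA export (90.5, rank 1133), and lmn-1, the lamin gene (76.3, rank 2238). The pooled lmn-1 summit lay 900 bp upstream. The strongest regions in the lmn-1 window ranked 11996 and 12932 in replicates 1 and 2, and whether they are the pooled region is not given. No pooled summit lay at mel-28, which encodes the ELYS homologue that seeds pores on chromatin, nor at the mRNA export receptor gene nxf-1.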

How the data were processed

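The ce11 lists were read: pooled, replicate 1, replicate 2 and IDR. Per the deposited manifests, alignments of the ChIP and of a control went into each candidate list, and the 3 candidate lists into the IDR list. For the caller, aligner, versions and IDR threshold, nothing was given in the sources used here. Column 7 holds the signal and column 9 the −log10 q-value, both as deposited by the authors. Each candidate list holds 30000 regions. The lists carry no read totals, which leaves the depth unknown; the control and the ce10 lists were not analysed here.

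Summits (column 2 plus column 10, printed from 1) were compared with starts of protein-coding transcripts in Ensembl release 115 of WBcel235, and no region ran past a chromosome end. Ranks order column 7 within 1 list. Distances run to the nearest of those starts of the gene whose window holds the summit. Roles were assigned from general knowledge. Python 3.11.15 with pandas 2.3.3 was used, and the assignment was checked on planted summits. No test was made, since there is 1 group and the signal chose the genes. Members, lists and hexamers were chosen with earlier results of these data known. The fullest values are given for the 4 marker genes (npp-8, npp-6, npp-14 and npp-16) and for genes at IDR peaks. Fewer values are given for the strongest gene of the other roles. Genes named beyond these were picked after their values were seen. The distance between replicate summits, the base composition, the neighbourhood counts, the nearby small RNA genes, the regions inside genes, starts of all transcripts, shares over all genes under the nearest start and ATTGCA were added after the data were seen.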

Additional observations from a re-analysis of the deposited data

How the results depend on the processing

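The number of genes with a pooled summit stayed within 1.5 times of 26 under the alternatives tried for it (18 to 29). The number with an IDR peak, 5, fell to 3 when a summit counted only for the nearest start, which took out ima-1 and npp-14, and to 3 among the 247 strongest regions. It was 7 among the 990 strongest, with npp-19 and npp-25 added. Each replicate alone gave 5, but without replicate 1 npp-19 and npp-25 stood in the place of npp-14 and npp-16. The number among the strongest 5000 was 13, and 6 with the nearest start alone, where the median rank was 7582 in place of 5027. The median summit position was -263.5 bp, -270 bp with the window of 2000 to 500 bp, -247 bp with 500 to 100 bp and -158 bp with the nearest start alone, and -273 to -268 bp in single replicates. In windows of 51 bp the count fell from 4 to 2 summits for GCCGCA, from 2 to 1 for CGCGCC and likewise for GTTCGA, and from 1 to 0 for CCGCAC, whose match at npp-8 was lost, and likewise for CACTTG. What a list of 30000 regions leaves out, and the depth behind each region, limit every statement on genes without a summit.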
